A study of Mus musculus with 9 samples.

Results

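Hmox1 and 9 other genes of the NRF2 antioxidant pathway were followed in RNA-seq counts of sorted mouse liver macrophages. The other 9 were Nfe2l2, Keap1, Nqo1, Gclc, Gclm, Txnrd1, Srxn1, Prdx1 and Slc7a11. All 10 symbols had a row among the 23413 genes of the count table, and 9 of them, all but Nqo1, had enough counts to be tested. Hmox1 was chosen by its value in these same libraries, since it was among the top genes lower with DPI than with vehicle, and its levels are therefore given as a description with no test. The other members stand for known roles in the pathway, and they too were chosen with earlier results of these data known.

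The libraries came from C57BL/6 (B6) male mice that entered the study at 5 weeks of age. NC-fed mice ate normal chow (2 libraries, labelled normal diet, with no treatment given in the labels). The HFD-fed mice ate a high fat diet for 8 weeks and received the vehicle PEG3000 (3 libraries) or DPI (diphenyleneiodonium) in that vehicle at 2 mg/kg (4 libraries), by intraperitoneal injection every 5 days from week 3. DPI activates the receptor GPR3, and it also blocks flavin enzymes, among them the NADPH oxidases that make superoxide in phagocytes. F4/80+CD11b+Gr1low macrophages were sorted from the livers, and the labels call them Kupffer cells (KCs, the resident macrophages of the liver). The comparisons asked how gene expression in these cells differed with HFD and how it differed with DPI in HFD-fed mice. The labels name 1 mouse per library, while the study's description names more mice per group than there are libraries, so whether a library is 1 mouse or a pool is not settled here. The labels' treatment field gives another dosing, 500 nM for 24 h, which is at odds with the design text and was not followed.

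NRF2, the product of Nfe2l2, is a transcription factor that the adaptor KEAP1 normally holds in the cytoplasm and marks for degradation. Oxidants and electrophiles modify KEAP1, NRF2 then enters the nucleus, pairs with a small MAF protein and binds antioxidant response elements beside genes for glutathione synthesis, thioredoxin recycling and quinone reduction. Hmox1 encodes heme oxygenase 1, which degrades heme to biliverdin, carbon monoxide and iron. Besides NRF2, it is controlled by the heme-sensing repressor BACH1. Liver macrophages take up old red blood cells and their heme, so Hmox1 also belongs to iron recycling in this tissue.

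The upstream sequences are shown for 3 members because the same short motifs stand before Prdx1, which had a high level, and before Gclm and Srxn1, which had low levels. RefSeq windows (GRCm38.p6) of the 250 bases before a transcription start were found for 8 of the 10 members, not for Hmox1 and Gclc. The letters TGACNNNGC, the core of an antioxidant response element, were searched on both strands and stood before 4 members, Gclm, Nfe2l2, Prdx1 and Txnrd1 (in 1 of its 3 windows). They stood before 11.5% of 27025 genes and in 10.2% of 32851 windows. The letters TGANTCA, the shared core of MAF and AP-1 elements, which read the same on both strands, stood before Prdx1 and Srxn1 and before 7.82% of all genes (6.75% of windows). Capitals mark the matches of either motif in the windows below, written 5′ to 3′. In Prdx1 a TGACNNNGC match on the opposite strand, beginning 133 bases before the start, overlaps a TGANTCA match. In Gclm the TGACNNNGC match is also on the opposite strand, and in Srxn1 both matches are TGANTCA.
Prdx1 (chr4:116685349-116685598, plus strand): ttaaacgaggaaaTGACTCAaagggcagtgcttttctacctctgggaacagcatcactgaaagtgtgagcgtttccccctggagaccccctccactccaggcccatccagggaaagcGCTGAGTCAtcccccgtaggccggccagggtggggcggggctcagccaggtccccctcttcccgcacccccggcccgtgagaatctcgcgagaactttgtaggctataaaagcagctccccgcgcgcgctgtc
Gclm (chr3:122245307-122245556, plus strand): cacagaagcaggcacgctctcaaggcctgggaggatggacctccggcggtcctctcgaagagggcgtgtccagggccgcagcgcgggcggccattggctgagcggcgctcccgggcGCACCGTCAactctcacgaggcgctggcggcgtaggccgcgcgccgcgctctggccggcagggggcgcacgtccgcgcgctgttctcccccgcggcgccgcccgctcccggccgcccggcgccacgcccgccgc
Srxn1 (chr2:152105274-152105523, plus strand): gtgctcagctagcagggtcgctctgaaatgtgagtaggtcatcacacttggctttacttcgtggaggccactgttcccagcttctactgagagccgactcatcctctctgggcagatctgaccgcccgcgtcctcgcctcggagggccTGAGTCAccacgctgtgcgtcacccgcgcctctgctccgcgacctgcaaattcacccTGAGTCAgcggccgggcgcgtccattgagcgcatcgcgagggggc
A match of these letters is a description of the sequence and not a measured binding site.

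Library totals lay between 3534325 counts (DPI 2) and 15585775 counts (DPI 1), and 27% to 44.5% of them fell on the ribosomal RNA gene Rn45s. Levels are given as CPM, each library's counts scaled to a fixed total with TMM factors. A count of 3 was used as the detection floor, which corresponds to 0.184 to 1.02 CPM here and covers counting error only. The macrophage markers, such as Cd68, Csf1r and Lyz2, were detected (10 of 10 genes, summed level 17120 to 47930 CPM in a library). The defining KC markers were sparse, which goes against the label. Clec4f had 0 counts in 3 of the 9 libraries, Vsig4 and Timd4 in 5 and Marco in 8, and most of the summed level of the 9 KC markers came from Id3. That sum was 224 and 236 CPM in NC, 474 to 946 CPM with vehicle and 262 to 549.6 CPM with DPI. It follows Id3, which had 219.5 and 136 CPM in NC and 437, 918 and 451 CPM with vehicle. The 2 NC libraries differed in other KC markers, with 0 and 244 counts of Clec4f and 0 and 113 of Cd5l. Their rank correlation over tested genes was 0.74, against 0.87 to 0.88 between vehicle and 0.84 to 0.89 between DPI libraries. The 5 monocyte markers with a row, such as Ly6c2, Ccr2 and Plac8, were all detected and summed to 3305 and 3012 CPM in NC, 3178 to 3904 CPM with vehicle and 2410 to 5316 CPM with DPI. The 8 markers of sinusoidal endothelial cells, all detected, summed to 235 and 360.4 CPM in NC and to 6.35 to 29.2 CPM with vehicle. In DPI 1 to DPI 4 they summed to 257, 113, 7.61 and 27.8 CPM, so that DPI 2 lay between the NC and vehicle libraries and DPI 1 within the NC range. The 8 neutrophil markers, all detected, summed to 1026 and 828 CPM in DPI 1 and DPI 2, to 3716 and 5457 CPM in DPI 3 and DPI 4, to 1445 and 3215 CPM in NC, and to 2430 to 3789 CPM with vehicle. S100a8, S100a9, Retnlg, Ngp and Ltf were lower in both DPI 1 and DPI 2 than in DPI 3 and DPI 4. Mmp8, Camp and Csf3r did not split so, and Mmp8 had 289, 73.4, 194 and 158 CPM in DPI 1 to DPI 4. The 4 eosinophil markers with a row summed to 68.2 to 96.4 CPM in NC, 52.0 to 66.2 CPM with vehicle and 152, 169.5, 30.1 and 98.7 CPM in DPI 1 to DPI 4. Of these 4, 3 were higher with DPI than with vehicle at an unadjusted p under 0.05 and at least 2-fold, against 1.5% of all genes. So were 4 of 8 endothelial, 3 of 8 neutrophil and 2 of 10 macrophage markers. In HFD vehicle against NC 6 of 8 endothelial and 3 of 10 hepatocyte markers were lower in that way, against 4.63%. Prg2 set DPI 3 apart from the other DPI libraries, with 79.4, 90.0, 0.371 and 47.8 CPM. The 7 markers of T, NK and B cells with a row, all detected, summed to 41.3 and 198 CPM in NC, 148 to 337 CPM with vehicle and 133 to 419 CPM with DPI. The 6 detected erythroid markers summed to 3455 and 509 CPM in NC, 350.5, 2180 and 104 CPM with vehicle and 149 to 522 CPM with DPI, and their part in the heme and iron genes was not tested. In sorted bulk samples, fewer cells of a type and less RNA per cell cannot be told apart.

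Hmox1 (chr8:75093621-75100589, plus strand, GRCm38, protein coding) had 115 and 90.4 CPM in the NC libraries. It had 310.3, 175 and 232 CPM in the vehicle libraries. With DPI it had 76.4, 94.4, 149 and 75.9 CPM. All 3 vehicle libraries lay above both NC libraries and all 4 DPI libraries, while the DPI and NC libraries overlapped. The mean was 102.5 ± 17.1 CPM in NC (SD, n = 2). It was 239 ± 68.0 CPM in the vehicle group (SD, n = 3) and 98.9 ± 34.3 CPM in the DPI group (SD, n = 4). The log2 fold change was 1.22 (SE 0.39) for HFD vehicle against NC and -1.27 (SE 0.31) for DPI against vehicle. The latter placed Hmox1 5th from the lowest p of 11393 genes, which is the value that chose it. Both differences use the same vehicle libraries, so the first is no independent test of Hmox1 either. Between DPI and NC the log2 difference was -0.05 (SE 0.35). With DPI 3 and DPI 4 alone, the pair with low endothelial and high neutrophil marker sums, the log2 fold change from vehicle was -1.09. These are among the values that chose Hmox1, and the part of other cell types in its level was not tested.

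**Figure D1:**
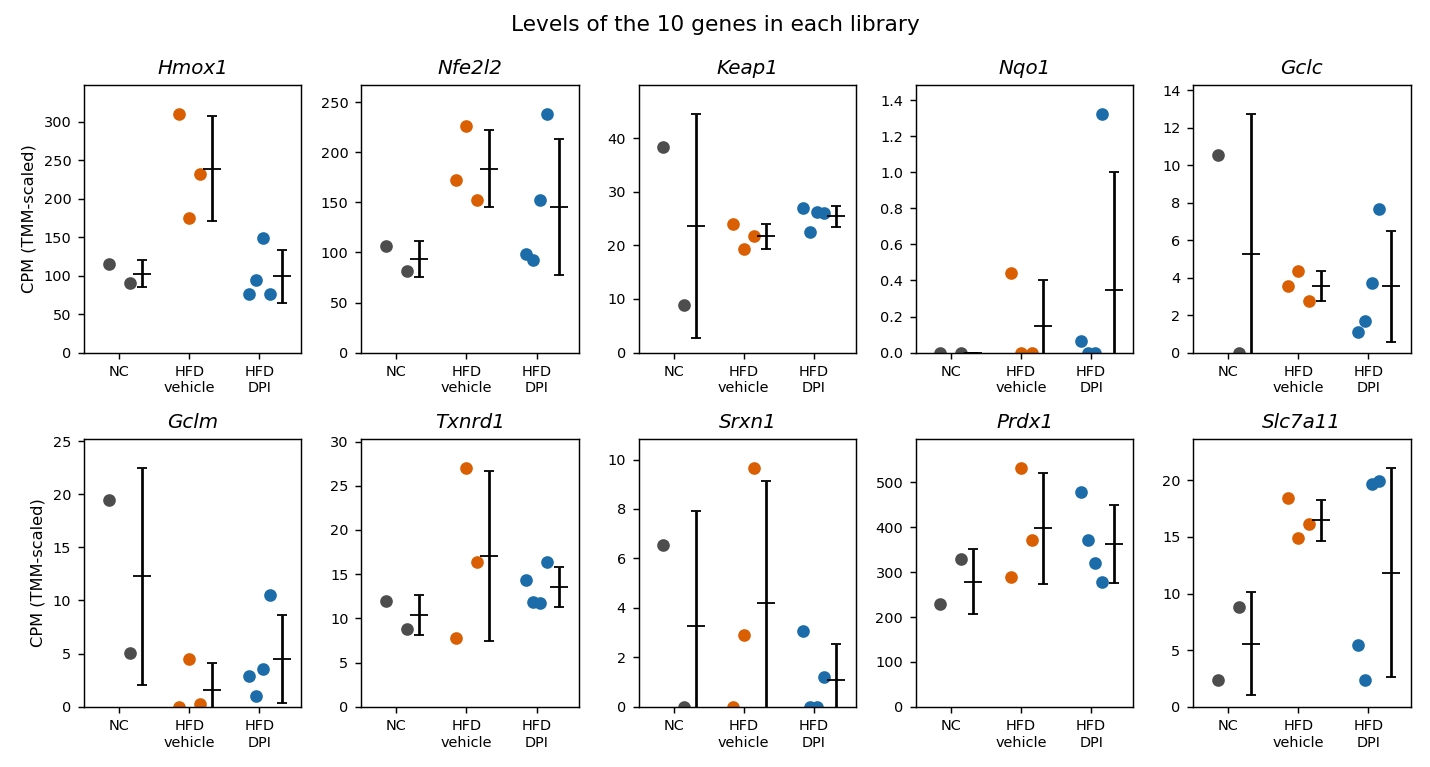
Level of each of the 10 genes in CPM (linear axis from 0, 1 panel per gene), with 1 point per library for NC (n = 2), HFD vehicle (n = 3) and HFD DPI (n = 4); the cross line is the group mean and the bar 1 SD, with any part of a bar below 0 not drawn. The 3 vehicle points of Hmox1, 175 to 310.3 CPM, lie above every other point of that panel, while Nqo1 stays at or below 1.33 CPM.

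Nfe2l2 (chr2:75675513-75704641, minus strand), which encodes NRF2 itself, had 106 and 81.1 CPM in NC. It had 172, 226 and 152 CPM with vehicle, so that all 3 libraries lay above both NC libraries. With DPI it had 98.0, 92.7, 153 and 239 CPM, a spread that covered the vehicle levels. The log2 fold change for HFD vehicle against NC was 0.97 (SE 0.42), just under 2-fold, with an unadjusted p of 0.0367 (0.165 with library size scaling, 0.146 without NC 2 and 0.103 without vehicle 2) and an adjusted p of 0.356 by edgeR (quasi-likelihood test, Benjamini-Hochberg). For DPI against vehicle it was -0.33 (SE 0.34, adjusted p = 0.999 in the same test). The low pair of DPI libraries, DPI 1 and DPI 2, are those with the high endothelial and low neutrophil marker sums given above, and the part of these markers in the spread was not tested. The log2 difference from vehicle was 0.09 with DPI 3 and DPI 4 alone, the high pair, split off after the values were seen. It was -0.68 without DPI 4, the highest DPI library (unadjusted p = 0.0395 by edgeR). Both shifts follow from which libraries were dropped, so they describe the spread and test no cell type.

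Keap1 (chr9:21229730-21239361, minus strand), the gene of the NRF2 repressor, was the member with the most even levels among the HFD libraries. It had 24.0, 19.2 and 21.8 CPM with vehicle and 26.9, 22.4, 26.2 and 26.0 CPM with DPI. The NC libraries held its highest and its lowest value, 38.4 and 8.78 CPM. The log2 fold changes were -0.12 (SE 0.55) for HFD vehicle against NC, whose sign depended on which NC library was kept, and 0.23 (SE 0.46) for DPI against vehicle.

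Slc7a11, Gclc and Gclm serve glutathione synthesis. Slc7a11 (chr3:49892526-50443614, minus strand) encodes the cystine carrier xCT, which brings in the cysteine for glutathione. It had 2.37 and 8.78 CPM in NC, 18.4, 14.9 and 16.1 CPM with vehicle, and 5.46, 2.38, 19.7 and 19.9 CPM with DPI. The vehicle libraries lay above both NC libraries, and the DPI libraries fell into a low pair and a high pair. The log2 fold change for HFD vehicle against NC was 1.56 (SE 0.90), with an unadjusted p of 0.106 and an adjusted p of 0.482 by edgeR (quasi-likelihood test, Benjamini-Hochberg). The value was 0.91 without NC 1 and 2.82 without NC 2 (unadjusted p = 0.363 and 0.0264 by edgeR), and only the latter was past the threshold. For DPI against vehicle it was -0.47 (SE 0.70). The low pair was again DPI 1 and DPI 2, whose endothelial marker sums were high and neutrophil marker sums low. The part of those cells in the Slc7a11 level was not tested. DPI 3 and DPI 4 alone gave a log2 difference from vehicle of 0.26. That pair was split off after the values were seen and holds the highest DPI levels, so the value is a description and no test.

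Gclm (chr3:122245557-122270732, plus strand), the modifier subunit of glutamate-cysteine ligase, had 107 and 27 counts in NC, 0, 25 and 1 counts with vehicle, and 47, 3, 19 and 103 counts with DPI. In CPM these were 19.5 and 5.04, then 0, 4.53 and 0.248, then 2.88, 1.02, 3.53 and 10.5. All vehicle libraries lay below both NC libraries, and 2 of them were under the floor of 3 counts. The log2 fold change for HFD vehicle against NC was -2.90 (SE 1.41), with an unadjusted p of 0.0600 and an adjusted p of 0.405 by edgeR (quasi-likelihood test, Benjamini-Hochberg). For DPI against vehicle it was 1.47 (SE 1.23). Without vehicle 2, the only vehicle library above the floor, they were -6.48 and 5.05, sizes that depend on the fit's handling of counts near 0. The difference from NC was -1.60 without NC 1. The difference with DPI was 0.62 without DPI 4, 0.88 without vehicle 1 and 0.96 without vehicle 3.

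Gclc (chr9:77754535-77794485, plus strand), the catalytic subunit of the same ligase, had 58 and 0 counts in NC, 16, 24 and 11 counts with vehicle, and 18, 5, 20 and 75 counts with DPI. Its mean level was 3.54 CPM both with vehicle (SD 0.814, n = 3) and with DPI (SD 2.96, n = 4). The log2 fold changes were -0.57 (SE 1.44) for HFD vehicle against NC and 0.01 (SE 1.22) for DPI against vehicle, and the first turned positive without NC 1, while the second turned negative with RLE scaling. With errors of this size, a 2-fold difference in Gclc was not detectable.

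Txnrd1, Srxn1 and Prdx1 belong to the thioredoxin branch. Prdx1 (chr4:116685544-116700822, plus strand), a peroxidase that reduces hydrogen peroxide, had 228 and 329.6 CPM in NC, 288, 532 and 371 CPM with vehicle, and 479, 371, 321 and 278 CPM with DPI. The 3 groups overlapped. The log2 fold changes were 0.51 (SE 0.34) for HFD vehicle against NC and -0.13 (SE 0.28) for DPI against vehicle. Reads of processed Prdx1 copies elsewhere in the genome could be split among loci by the authors' counting, so its level is uncertain.

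Txnrd1 (chr10:82833951-82897712, plus strand) encodes the reductase that restores thioredoxin with NADPH. It had 12.02 and 8.78 CPM in NC, 7.77, 27.0 and 16.4 CPM with vehicle, and 14.3, 11.9, 11.7 and 16.4 CPM with DPI. The vehicle libraries spanned all the others, and the log2 fold changes were 0.71 (SE 0.61) and -0.33 (SE 0.50). Srxn1 (chr2:152105516-152111376, plus strand) encodes sulfiredoxin, which repairs overoxidised peroxiredoxins. It had 36 and 0 counts in NC, 0, 16 and 39 counts with vehicle, and 50, 0, 0 and 12 counts with DPI. Every group thus held at least 1 library at 0, and the log2 fold changes of 0.35 (SE 2.10) and -1.86 (SE 1.75) were smaller than 2 SE. The second was -0.39 without vehicle 3 and -3.11 without DPI 1.

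Nqo1 (chr8:107388225-107403206, minus strand), the quinone reductase often read as the marker of NRF2 activity, was nearly absent from these libraries. It had 0 and 0 counts in NC, 2, 0 and 0 counts with vehicle, and 1, 0, 0 and 13 counts with DPI. Only DPI 4 was above the floor of 3 counts, at 1.33 CPM. No fold is given, since the other 8 libraries were all under that floor.

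Hmox1 apart, 0 of the other 8 tested members were higher and 0 were lower in HFD vehicle than in NC at the threshold of the study's methods, an unadjusted p under 0.05 with at least a 2-fold change. Of all 11393 tested genes, 7.03% were higher and 4.63% lower at that threshold. Of the 8, 1 (Nfe2l2) had an unadjusted p under 0.05, against 13% of all genes, and 0 had an adjusted p under 0.05 in edgeR's quasi-likelihood test, against 0.0614%. The libraries did not overlap for 2 of the 8 that were higher (Nfe2l2 and Slc7a11) and 1 that was lower (Gclm), against 15% and 12.5% of all genes. The median log2 difference of the 8 was 0.43, beside 0.03 over all genes tested. Library size scaling in place of TMM turned the split over all genes from 801 higher and 528 lower to 539 higher and 933 lower and shifted the all-gene median from 0.03 to -0.26 on the log2 scale. Under it Hmox1 was at 0.92, under 2-fold, and Gclm, at -3.14, was lower at the threshold.

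With DPI against vehicle, 0 of the 8 were higher and 0 were lower at the threshold, and 1.5% of all genes were higher and 1.34% lower. An unadjusted p under 0.05 was found for 0 of the 8 and for 4.13% of all genes (470 genes). By adjusted p the share was 0% of all genes in edgeR's quasi-likelihood test. The groups did not overlap for 0 of the 8, against 3.38% of all genes higher and 2.48% lower. The median log2 difference of the 8 was -0.23, with 3 positive and 5 negative, beside 0.04 over all genes. Between DPI and NC 0 of the 8 passed the threshold, where 6.24% of all genes were higher, 3.05% lower and 0.00878% past the adjustment in the same edgeR test. Since both HFD comparisons share the vehicle libraries, opposite signs of a member in them are not independent of each other.

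**Figure D2:**
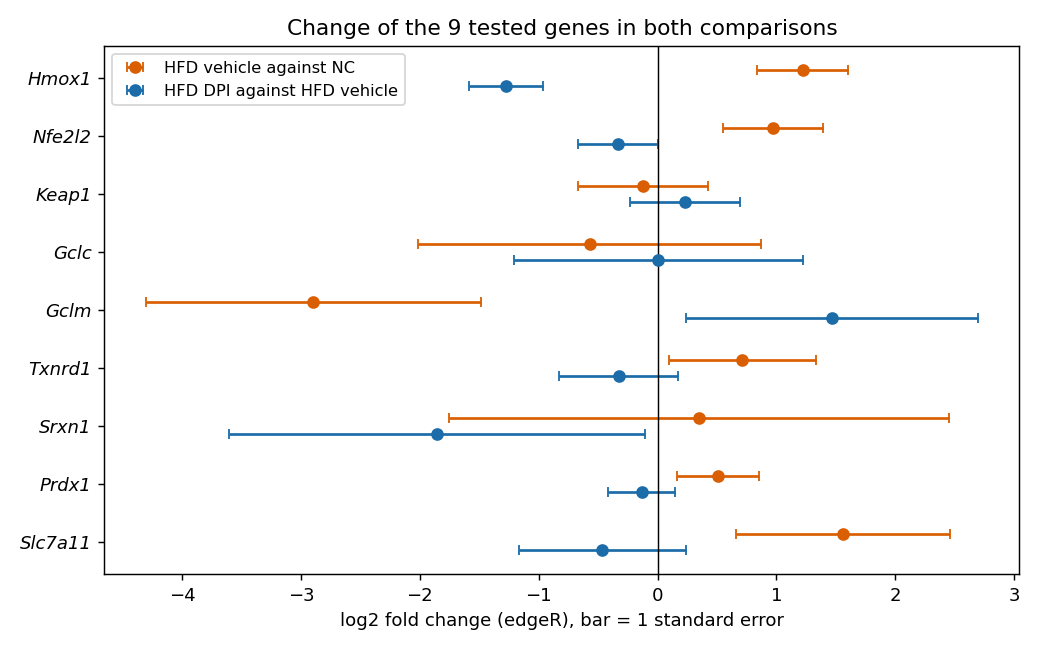
Log2 fold change of the 9 tested genes from edgeR, for HFD vehicle against NC (orange) and HFD DPI against HFD vehicle (blue), with bars of 1 SE. Hmox1 stands at 1.22 and -1.27 with short bars, while the bars of Gclc, Gclm and Srxn1 are each over 1 log2 unit to either side.

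Levels were also divided by the joined length of all annotated exons, 1751 bases for Hmox1 and 3043 for Prdx1, which is not the length of 1 transcript. On that scale Hmox1 and Prdx1 were the most abundant members in the vehicle libraries, at 137 and 131 CPM per kilobase. Their library ranges overlapped (99.9 to 177 and 94.7 to 175). Before that division Prdx1 was higher with vehicle, at a mean of 397 CPM against 239 for Hmox1. Nfe2l2 followed at 48.3 CPM per kilobase, with a range of 40.1 to 59.6 that touched neither neighbour. Keap1 had 4.62 and Txnrd1 2.41 CPM per kilobase. Srxn1, Slc7a11, Gclc and Gclm lay between 0.253 and 1.49, with ranges that overlapped one another in part, and Nqo1 was last at 0.0953. In NC and with DPI Prdx1 was above Hmox1, at 91.6 against 58.5 and at 119 against 56.5 CPM per kilobase, and the ranges of the 2 genes did not overlap there.

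Another 81 genes of the pathway were grouped by role in 7 lists, and 73 of them had enough counts to be tested. In HFD vehicle against NC, 5 were higher and 8 lower at the threshold, against 7.03% and 4.63% of all genes. Their median log2 difference was 0.14. The libraries of 15 higher and 17 lower genes did not overlap, against 15% and 12.5% of all genes. With DPI against vehicle 0 were higher and 1 was lower, against 1.5% and 1.34%, with a median of 0.10. The libraries of 6 higher and 5 lower genes did not overlap, against 3.38% and 2.48%. Between DPI and NC 4 were higher and 2 lower, against 6.24% and 3.05%.  None had an adjusted p under 0.05 in edgeR's quasi-likelihood test (0 of 73 in each comparison), so in what follows "rose" and "fell" refer to the study's unadjusted threshold. For HFD vehicle against NC the count was 7 in place of 13 without vehicle 2. Over all genes that fit gave 757 higher and 469 lower of 11219, beside 801 and 528 of 11393 as reported. Without NC 2 only 1 NC library is left, so no count is given here. In that fit the median log2 difference over all genes moved from 0.03 to 0.29.

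Among heme and iron genes, Fth1, the heavy chain of the iron store ferritin, rose with HFD. It had 2667 and 3438 CPM in NC, 5512, 11960 and 6593 CPM with vehicle, and 3940, 5118, 6231 and 7647 CPM with DPI. All vehicle libraries were above the NC libraries, with a log2 fold change of 1.39 (SE 0.36, adjusted p = 0.157 by edgeR (quasi-likelihood test, Benjamini-Hochberg)). With DPI Fth1 was above both NC libraries in 4 of 4 libraries, with a log2 difference from NC of 0.91 (SE 0.34). Fth1 has processed copies in the genome, so its counts are uncertain in the same way as those of Prdx1. Blvra, biliverdin reductase A, which acts on the product of heme oxygenase, fell with HFD by 1.28 on the log2 scale (SE 0.38), from 95.8 and 54.7 CPM to 25.5, 41.9 and 25.3 CPM.

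Spic encodes a transcription factor of iron-recycling macrophages, and it was the related gene that fell with DPI. It had 6.01 and 6.16 CPM in NC, 11.5, 9.79 and 8.18 CPM with vehicle, and 0.184, 3.74, 1.30 and 3.27 CPM with DPI. All 4 DPI libraries were below all vehicle and NC libraries. The log2 fold change from vehicle was -2.25 (SE 0.88), with an unadjusted p of 0.0240 and an adjusted p of 0.999 by edgeR (quasi-likelihood test, Benjamini-Hochberg). The call was lost without vehicle 1 or without DPI 3. Of the 10 heme and iron genes the other 9 did not pass the threshold with DPI. They include Hmox2, the constitutive heme oxygenase, with 103.8 ± 44.8 CPM (SD, n = 4) against 66.5 ± 8.90 CPM (SD, n = 3), and the iron exporter Slc40a1, which is also a KC marker here, with 10.4 ± 4.72 against 20.1 ± 1.70 CPM.

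**Figure D3:**
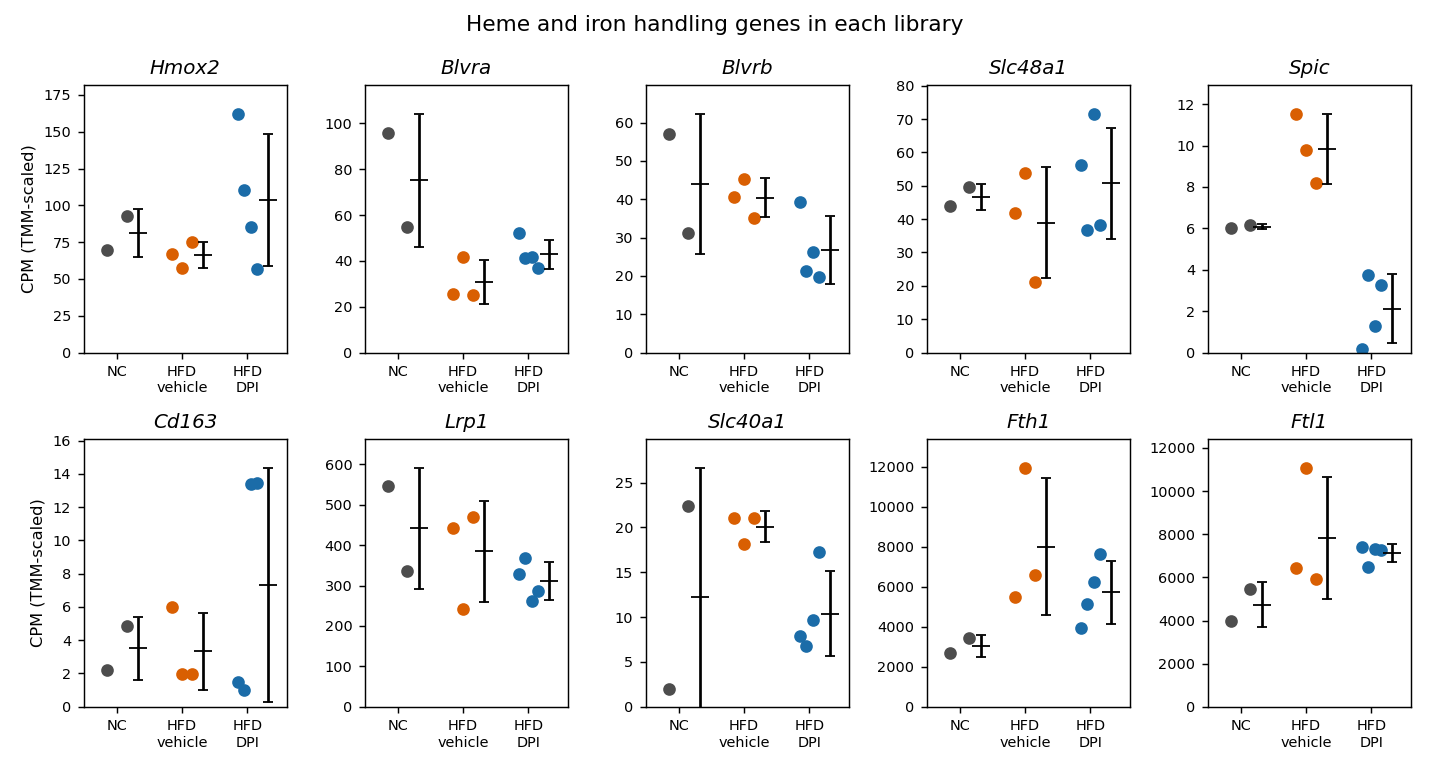
Level in CPM (linear axis from 0) of the 10 heme and iron handling genes, 1 point per library for NC (n = 2), HFD vehicle (n = 3) and HFD DPI (n = 4), with the group mean and 1 SD, bars below 0 not drawn. The DPI points of Spic, 0.184 to 3.74 CPM, lie below all its other points, and the vehicle points of Fth1, 5512 to 11960 CPM, lie above both NC points.

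Of the 12 regulators and partners of NRF2, 1 rose and 2 fell with HFD, against 7.03% and 4.63% of all genes. Sqstm1, whose product p62 draws KEAP1 into autophagy, rose from 124 and 181 CPM to 281, 465 and 233 CPM (log2 fold change 1.10, SE 0.40). Nfe2l1, a relative of Nfe2l2 that controls proteasome genes, fell by 1.10 on the log2 scale (SE 0.49) and Dpp9, a peptidase, by 1.75 (SE 0.50). None of the 12 passed with DPI. Bach1, the gene of the heme-sensing repressor of Hmox1, had the smallest p of that list, with 126, 61.5 and 87.7 CPM with vehicle and 58.8, 39.1, 52.9 and 80.1 CPM with DPI. Those groups overlapped (log2 fold change -0.66, SE 0.32, unadjusted p = 0.0595 and adjusted p = 0.999 in edgeR's quasi-likelihood test).

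NADPH is the reductant of this system, and its list holds enzymes that form it and others of the pentose phosphate pathway. Of the 5 tested (G6pdx, Pgd, Taldo1, Tkt and Idh1), 1, Idh1, was lower at the threshold with HFD, against 4.63% of all genes. The median log2 difference was -0.72, beside 0.03 over all genes. Idh1, cytosolic isocitrate dehydrogenase, fell by 1.63 on the log2 scale (SE 0.55), from 68.5 and 186 CPM to 47.7, 39.5 and 36.2 CPM. In DPI 1 and DPI 2 Idh1 had 125 and 83.6 CPM and in DPI 3 and DPI 4 33.4 and 36.3 CPM, the same split as the endothelial marker sum. The endothelial and hepatocyte marker sums were also both higher in NC than with vehicle (hepatocyte 308 and 456 CPM in NC and 162.8 to 201.8 CPM with vehicle). In DPI 1 to DPI 4 the hepatocyte sum was 343.4, 223.8, 202.4 and 251.2 CPM. The part of either cell type in the Idh1 level was not tested. With DPI against vehicle the median was 0.19, and 0 passed. Tkt, transketolase, had the smallest p, with 193 to 209 CPM with vehicle and 273, 385, 224 and 251 CPM with DPI, which did not overlap (log2 fold change 0.51, SE 0.25).

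Of the 4 tested superoxide dismutase and catalase genes, 0 passed in either HFD comparison. Sod2, the mitochondrial dismutase, came closest in both and, like Hmox1, was highest with vehicle. It had 70.3 and 150.5 CPM in NC, 179, 217.5 and 240.4 CPM with vehicle, and 109.8, 128, 142 and 110.5 CPM with DPI. The vehicle libraries were above all others, with log2 fold changes of 0.94 (SE 0.35, unadjusted p = 0.0194, adjusted p = 0.314) against NC and, for DPI against vehicle, of -0.79 (SE 0.29, unadjusted p = 0.0154, adjusted p = 0.999) in edgeR's quasi-likelihood test, both under 2-fold.

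In the glutathione list 1 of 18 tested genes passed with HFD, where 4.63% of all genes were lower. It was the export pump Abcc5, which fell by 1.35 on the log2 scale (SE 0.62). With DPI 0 passed. Glrx, glutaredoxin, had 145, 106 and 134 CPM with vehicle and 87.8, 54.0, 91.7 and 79.5 CPM with DPI, with no overlap and a log2 fold change of -0.71 (SE 0.27, unadjusted p = 0.0226, adjusted p = 0.999 in edgeR's quasi-likelihood test). In the thioredoxin and sulfur repair list, 2 of 14 rose and 1 fell with HFD, against 7.03% and 4.63% of all genes. Sesn1, a sestrin, rose by a log2 fold change of 2.01 (SE 0.92), from 1.82 and 8.78 CPM to 4.00, 33.0 and 27.3 CPM, with vehicle 1 inside the NC range. Msra, a methionine sulfoxide reductase, rose by 1.31 (SE 0.57), and Prdx4, the peroxiredoxin of the endoplasmic reticulum, fell by 1.48 (SE 0.58). With DPI 0 passed, and thioredoxin itself (Txn1) had 127 to 173 CPM against 186 to 247 CPM with vehicle.

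In the list of quinone, aldehyde and xenobiotic detoxification 1 of 10 tested genes rose and 2 fell with HFD, against 7.03% and 4.63% of all genes. Ephx1, microsomal epoxide hydrolase, was at 0 counts in NC 1 and NC 2, with 11.8, 7.98 and 2.97 CPM with vehicle and 2.02, 3.74, 2.97 and 5.00 CPM with DPI. Its mean was 13.5 times a floor of 3 counts per NC library with vehicle and 6.13 times that floor with DPI. The floor covers counting error only. Gclc had 58 and 0 counts and Srxn1 36 and 0 in the same NC libraries, so these folds do not bound the difference between groups. Nqo2, a relative of Nqo1, fell by 2.57 on the log2 scale (SE 0.97), from 21.9 and 20.2 CPM to 3.11, 3.26 and 4.21 CPM. Ugdh, which makes UDP-glucuronate, fell by 1.88 (SE 0.82). With DPI Nqo2 had 12.6, 9.85, 4.45 and 0.408 CPM, so that DPI 1 and DPI 2, with the higher endothelial marker sums, were above DPI 3 and DPI 4. The endothelial sum was also higher in NC than with vehicle, as given above, as was the sum of the hepatocyte markers, 10 of 10 detected (308 and 456 CPM in NC, 162.8 to 201.8 CPM with vehicle). With DPI the hepatocyte sum was 202.4 to 343.4 CPM. The part of either cell type in Nqo2 and Ugdh was not tested. With DPI 0 of the 10 passed, and Ugdh, with the smallest p, had a log2 fold change of 1.19 (SE 0.72).

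Between DPI and NC, Dpp3, a peptidase, rose by a log2 fold change of 1.40 (SE 0.55), Sesn1 by 2.38 (SE 0.91) and Msra by 1.41 (SE 0.55), while Nfe2l1 fell by 1.25 (SE 0.45) and Abcc5 by 1.56 (SE 0.57). The libraries of Abcc5 overlapped, since DPI 1 had 27.8 CPM and NC 2 25.2 CPM. With Ephx1 these made up the 6 related genes past the threshold in that comparison. Pgd, an NADPH-forming enzyme of the pentose phosphate pathway, did not reach 2-fold, with a log2 difference of -0.89 (SE 0.30). Sod1, the cytosolic dismutase, had the smallest p of its list, at a log2 difference of 0.33 (SE 0.33).

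**Figure D4:**
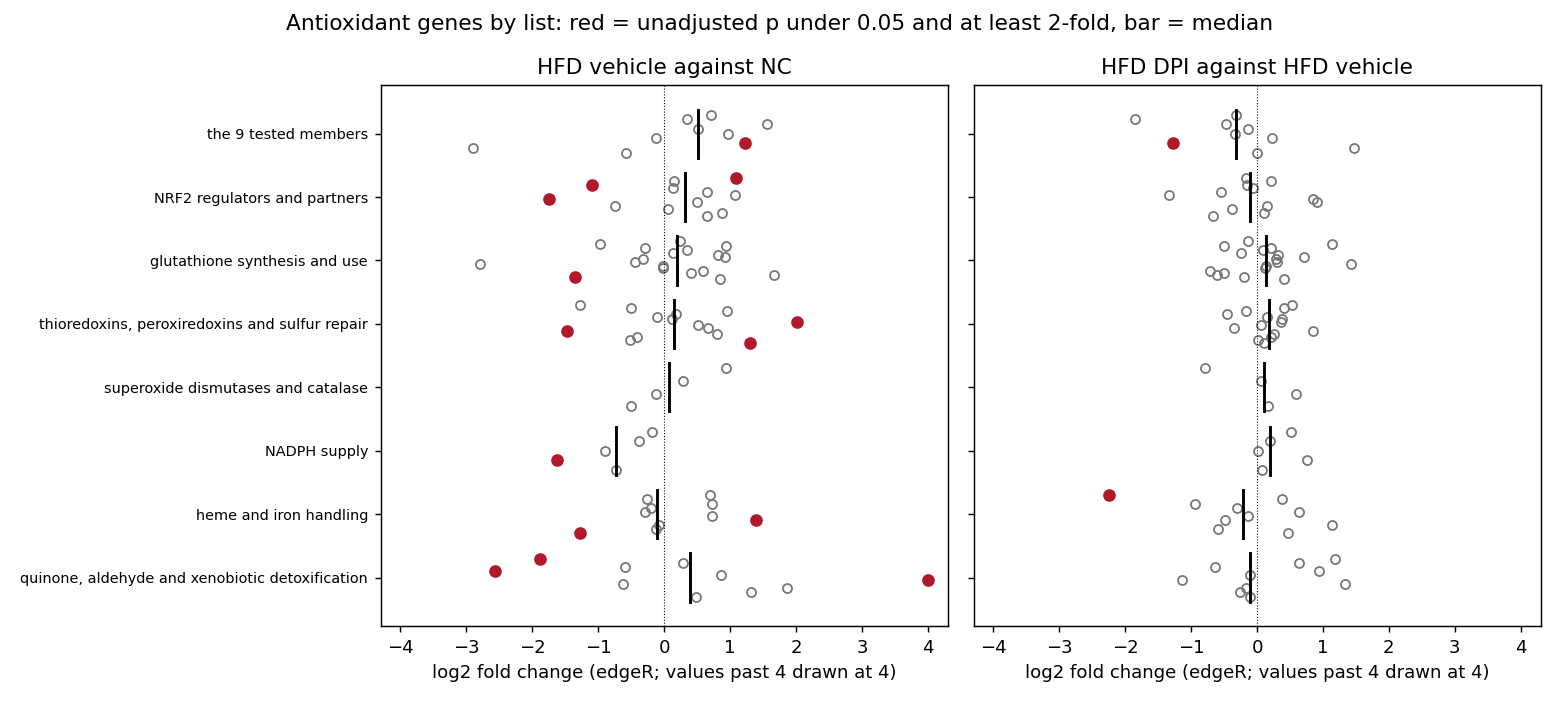
Log2 fold change of each tested gene in the member list and the 7 related lists, for HFD vehicle against NC (left) and DPI against vehicle (right), with filled red points for genes past the unadjusted threshold, a bar at each list's median and values past 4 drawn at 4 (Ephx1). Filled points number 14 on the left, in both directions, and 2 on the right, Hmox1, which this contrast chose, and Spic, both negative.

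The genes whose pattern over the 9 libraries was closest to that of Hmox1 were Rrn3, Acsf2, Hsf2, Mtm1 and Sec61a1. Likeness was the root mean square difference between mean-centred log2 CPM profiles, which was 0.27 for Rrn3, 0.32 for Acsf2, 0.33 for Hsf2 and 0.34 for Mtm1 and Sec61a1. None of the 5 is in the lists above. Rrn3, an initiation factor of RNA polymerase I, had 9.47 and 5.60 CPM in NC, 20.4, 12.5 and 17.4 CPM with vehicle and 7.11, 7.81, 13.9 and 8.78 CPM with DPI. Sec61a1, a subunit of the translocon of the endoplasmic reticulum, had 116 and 121 CPM, then 329, 137 and 313 CPM, then 115, 93.1, 167 and 135 CPM. These genes were chosen for this likeness over the same libraries, so it is a description.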

How the data were processed

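RNA was measured by RNA-seq in 9 libraries of sorted liver macrophages. Per the study's methods, the authors used mm10, bowtie2 and RSEM to obtain gene counts, and they deposited whole-number raw counts without normalization. The submitters' processing notes list TopHat2 and edgeR instead. The gene annotation and strand setting are not given in the sources used here.

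Genes with low counts were removed with filterByExpr, which left 11393. TMM factors, dispersions (biological coefficient of variation 0.65) and glmQLFit over the 3 groups came from edgeR 4.0.16 in R 4.3.3, with Benjamini-Hochberg adjustment of p over these genes. SE is the size of the log2 fold change divided by the square root of F. DESeq2 1.42.0 was an alternative, as were RLE and library size scaling, other count filters, the likelihood ratio test, a replicate block, no Rn45s, thinned counts and each library left out. Figures used Python 3.11.15 and matplotlib 3.10.9. The edgeR step was tested on simulated data. Positions came from GENCODE M21 (GRCm38).

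The members and lists were chosen with earlier results of these data known. All 10 members were named, and from each related list at most 3 genes per comparison with the smallest unadjusted p past the threshold, or else the gene with the smallest p; Hmox2, Slc40a1 and the NADPH genes besides Idh1, Tkt and Pgd were added after their values were seen. For likeness to Hmox1 the prior count was 2. The p-values measure the spread between libraries, which the labels give as 1 mouse each. Library totals were 3534325 to 15585775 counts.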

Additional observations from a re-analysis of the deposited data

Results flagged for a closer look

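In the group of 4 DPI libraries, 4 of the 32 genes with values by library had 1 library far from the others by Dixon's criterion. Chance gives this for about 1 in 20 genes if values are normally distributed. These were untransformed CPM that include counts under the floor, so no excess can be read from the share. Nqo1 had 1.33 CPM in DPI 4, its highest DPI library. Dpp3 had 18.7 CPM in DPI 2, its lowest DPI library. Nfe2l1 had 20.7 CPM in DPI 2, its highest DPI library. Sesn1 had 54.7 CPM in DPI 4, its highest DPI library. The groups of 2 and 3 libraries were not examined by this criterion.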

How the results depend on the processing

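Over the alternatives Hmox1 lay between 0.92 and 1.41 on the log2 scale for HFD vehicle against NC and between -1.54 and -1.05 for DPI against vehicle, which is a description, since it was chosen on these libraries. Of 304 alternative values of the other single members, 269 kept the direction and side of the threshold, and of 58 alternative counts of related genes 49 stayed within 1.5 times. The counts of members in this paragraph include Hmox1, which adds 1 wherever it lies past the threshold and is no support. For HFD vehicle against NC the count was 2 with no filter on low counts, DESeq2, the likelihood ratio test and thinned counts (the other being Gclm) and without Rn45s (Nfe2l2), and with library size scaling it was Gclm alone. Leaving out 1 library gave 1 to 4 in that comparison, 1 to 2 for DPI against vehicle and 0 to 2 for DPI against NC. Beside Hmox1, the members past the threshold were Nfe2l2, Gclc and Keap1 without NC 1, Gclm and Slc7a11 without NC 2, Nfe2l2 without vehicle 1, vehicle 3 or DPI 2, and Gclm without vehicle 2. For DPI against vehicle it was Gclm without vehicle 2, and for DPI against NC Gclc and Keap1 without NC 1 and Slc7a11 without NC 2. A lone NC library was assumed to vary like the other groups. For the related genes the same range was 7 to 25, 0 to 2 and 6 to 23, with 23 and 25 reached without NC 2; without DPI 1 the count against NC was 12, and without DPI 4 that against vehicle was 2. Over all genes, an adjusted p under 0.05 was found for 7 (HFD vehicle against NC), 0 (DPI against vehicle) and 1 (DPI against NC) as reported. It was found for 312, 2 and 219 with DESeq2 and for 280, 1 and 186 with the likelihood ratio test. With no filter on low counts the numbers were 52, 0 and 22, and with the replicate block 0 in each. At least 10 counts in every library left 0 related genes for DPI against vehicle.

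The replicate numbers did not pair the libraries, since no same-numbered vehicle and DPI libraries deviated together (correlations 0.04, -0.01 and 0.03). With the replicate block 8 related genes passed for HFD vehicle against NC, beside 610 higher and 287 lower of all 11393 genes. The log2 fold change was 0.10 for Keap1 and 3.74 for Srxn1 in that comparison. With DPI it was -5.03 for Srxn1, -1.26 for Slc7a11, -0.86 for Gclc and 0.0119 for Prdx1. For Nfe2l2 with DPI it was -0.71, and its unadjusted p fell under 0.05 there (0.0476 by edgeR). Other reversed signs were Srxn1 at -0.0936 (HFD vehicle against NC, library size scaling) and Gclc with DPI at -0.0098 (RLE scaling), -0.0113 (DESeq2), -0.0114 (no Rn45s) and -0.0249 (only the groups compared). With DPI 3 and DPI 4 alone, chosen after seeing the data, Nfe2l2 was 0.0934 and Slc7a11 0.26. Signs also changed when 1 library was left out, with ranges of -0.80 to 1.31 for Keap1, -1.54 to 7.59 for Gclc and -1.09 to 7.82 for Srxn1 (HFD vehicle against NC), and -0.71 to 0.31 for Gclc, -0.68 to 0.18 for Txnrd1 and -0.33 to 0.13 for Prdx1 (DPI against vehicle). The values of 7.59 and 7.82 were fitted against a lone NC library at 0 counts and are no bound. Slc7a11 was 2.82 without NC 2. The cause of these changes was not tested. Nqo1 was under 3 counts in 8 of 9 libraries, so no difference in it was detectable at this depth.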
